A study of Mus musculus with 20 samples.

Results

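Translation initiation factors are the genes whose symbol on the array platform begins with Eif and a digit from 1 to 6. The rule found 47 such genes among the 18193 with a probe set of a single symbol, and each gene was read from whichever of its probe sets had the highest mean log2 intensity. Of the 47, 46 passed the filter on low intensities and were tested among 16429 genes, and 44 passed it on all 20 arrays. All 47 matched a RefSeq mouse gene of the same Entrez identifier. They lie on autosomes (44 genes), the X chromosome (2 genes) and the Y chromosome (1 gene). The study followed whole mouse testis after birth. Total RNA was taken on 10 days, which were days 0, 3, 6, 8 and 10 and then days 14, 18, 20, 30 and 35, with 2 arrays a day and 20 in all. No treatment, mutation or strain is named in the labels used here, so the days are the groups. The labels do not say whether the arrays of a day stand for different animals, and p-values therefore measure only the spread between these samples, which may be technical.

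Initiation brings the small ribosomal subunit to the start codon of a messenger RNA. eIF2, joined to GTP and the initiator methionyl tRNA, loads the small subunit, eIF2B recharges eIF2, and the eIF2 kinases restrain that cycle under stress. The cap is bound by eIF4E, the scaffold eIF4G links it to the helicase eIF4A, eIF3 joins the scaffold to the small subunit, and eIF1, eIF1A, eIF5 and eIF5B act in scanning and in joining of the large subunit. Germ cells of the testis are known for storing messages and translating them later, and for homologs of general translation factors that are used mainly in the male germ line.

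Values are linear probe set intensities, given for replicate 1 and then replicate 2 of a day, and levels of different probe sets are not compared. Differences are of log2(intensity + 7.83) with their standard error (SE) from limma, fitted to all 20 arrays. A gene is said to have risen or fallen when its adjusted p was under 0.05 and the difference was at least 1 in size (2-fold). Array medians lay between 29.4 and 43.4, and the replicates of a day correlated across genes with r between 0.952 and 0.986. The low end of the scale stepped up between days 14 and 18: the 10th percentile of an array was 1.71 to 2.27 on days 0 to 14 and 5.09 to 7.88 on days 18 to 35. That step cannot be told apart from age in the results that cross it. These are day 20 against day 14, day 35 against day 0 and the time course over the 10 days. One of the labels of the array titled day 18 replicate 2 gives day 0, and the title was followed. None of the 5 comparisons of days below contrasts day 18, and without that array the counts of members that changed were the same, 24 over the time course included.

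Cell composition changed over the same days. The summed intensity of 12 spermatid markers was 54659 to 60734 on day 35, against 418 to 462 on day 0, and 11 of 12 rose. Of 10 pachytene spermatocyte markers, 9 rose, with sums of 33095 to 33919 on day 35 and 574 to 597 on day 0. Of 10 Sertoli cell markers tested, 7 fell and 3 rose, with sums of 1970 to 2134 on day 35 and 9973 to 10053 on day 0. Of 6 Leydig cell markers, 4 fell, with sums of 3600 to 4905 on day 35 and 9138 to 9412 on day 0. Of 6 peritubular myoid markers, 4 fell, with sums of 1826 to 2020.5 on day 35 and 4425 to 4565 on day 0, and of 7 markers of dividing cells 5 fell, with sums of 5218 to 5512 and 10665 to 11320. Of 6 macrophage markers, 2 rose, with sums of 983 to 1041 on day 35 and 529 to 545 on day 0. Of 9 spermatogonial markers, 3 rose and 4 fell, and 9 of 11 meiotic prophase markers rose. Of 3 red cell markers, 1 fell, with sums of 82.5 to 129 on day 35 and 272 to 288 on day 0. Of 3 epididymis markers tested, 2 rose and 1 fell, although the sums over 4 were lower, at 104 to 112 on day 35 and 242 to 257 on day 0. The part of these shifts in the results below was not tested. In RNA of a whole organ, fewer cells of a type and less RNA per cell cannot be told apart.

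Most initiation factor transcripts were at their highest in the first 10 days and at their lowest at the end. Of the 46 tested, 31 had their highest day mean on days 0 to 10, 8 on days 14 to 20 and 7 on days 30 or 35, while 28 had their lowest on days 30 or 35. The first of these spans holds more of the sampled days than the others. The counts were not made over all genes, so they are not shown to be particular to the members. On day 35 against day 0, 16 fell and 2 rose. The largest falls were those of Eif4ebp1, a binder and repressor of eIF4E (7.37-fold), and Eif2s3x, the X-linked gamma subunit of eIF2 (7.23-fold). Next came Eif4b, a cofactor of the eIF4A helicase (6.28-fold). The rises were those of Eif1b, a homolog of the scanning factor eIF1 (3.76-fold), and Eif4g3, a scaffold of the cap-binding complex (3.56-fold). Of all 16429 genes, 27.6% fell and 27.3% rose in this comparison. The members that fell are 34.8% of those tested, near that background, and those that rose are 4.35%, below it. The median difference of the members was -0.47, against -0.03 over all genes tested.

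**Figure D1:**
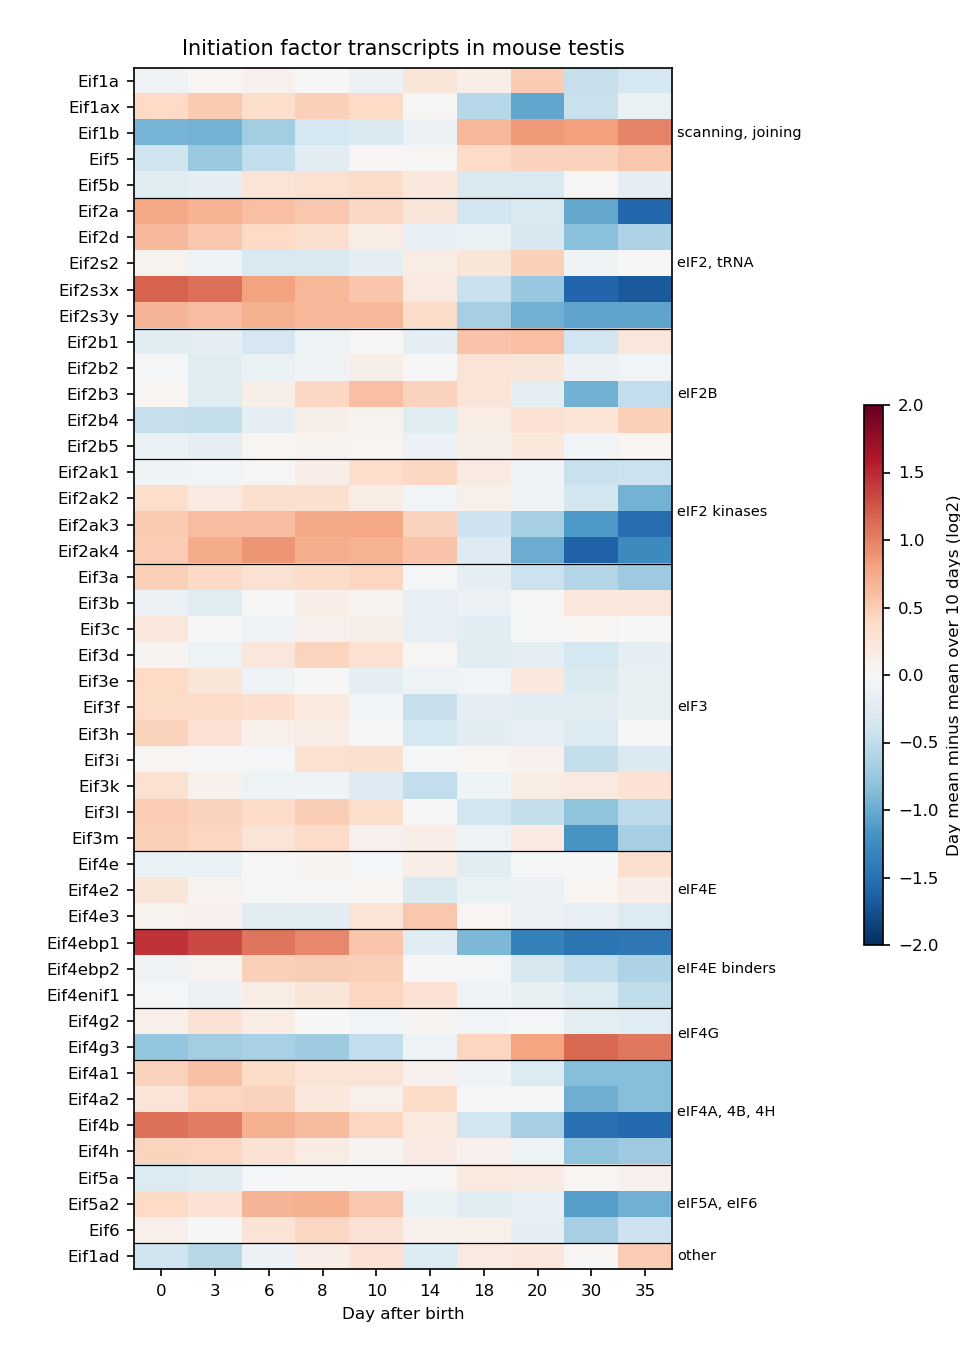
Rows are the 46 tested initiation factors grouped by role, columns the 10 days, and the color is the day mean of log2(intensity + 7.83) minus the mean of the gene over the 10 days, on a scale cut at -2 and 2. Eif4ebp1, Eif2s3x, Eif4b and Eif2a shift to blue with age, while Eif1b and Eif4g3 shift to red.

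Over the whole course, 24 of 46 members changed at least 2-fold between their highest and lowest day with an adjusted p under 0.05 of the moderated F statistic, a share of 52.2%, against 77.6% of all genes. The median range between highest and lowest day was 1.07 for the members and 1.80 for all genes tested, on the log2 scale. With intensities floored at the pooled median (34.6), the medians were 1.09 and 1.35, and 10303 of all genes changed, where 12748 did otherwise. With the pooled 40th percentile as the added constant the medians were 1.04 and 1.42. By the adjusted p alone 45 of 46 passed, where 87.9% of all genes did. The exception was Eif2b5, the catalytic subunit of eIF2B, with a range of 0.39 and an adjusted p of 0.387. The largest range among the members was 2.91, for Eif4ebp1.

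The promoter sequences of 6 members with large differences on day 35 against day 0 are shown because they move in opposite directions: Eif1b and Eif4g3 rose, and Eif2s3x, Eif4b, Eif2a and Eif2s3y fell. Each runs 5′ to 3′ along the gene from 250 bases before its annotated start to 50 after, from RefSeq, build GRCm38.p6. Capitals mark matches on either strand to 6 motifs, and where hits overlap the capitals run together. The motifs are the GC box GGGCGG, the ETS factor site spelled CCGGAAG, the enhancer box CACGTG, the element CCAAT bound by factor NF-Y, the core promoter letters TATAAA near some start sites, and the cyclic AMP response element TGACGTCA.
Eif1b (chr9:120492356-120492655, plus strand): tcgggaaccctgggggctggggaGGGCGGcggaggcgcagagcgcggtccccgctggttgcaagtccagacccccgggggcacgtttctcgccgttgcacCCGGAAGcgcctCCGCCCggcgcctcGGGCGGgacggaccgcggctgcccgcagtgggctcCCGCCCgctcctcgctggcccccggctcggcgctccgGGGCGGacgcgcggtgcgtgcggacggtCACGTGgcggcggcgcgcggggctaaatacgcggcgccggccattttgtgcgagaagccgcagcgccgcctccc
Eif4g3 (chr4:137993205-137993504, plus strand): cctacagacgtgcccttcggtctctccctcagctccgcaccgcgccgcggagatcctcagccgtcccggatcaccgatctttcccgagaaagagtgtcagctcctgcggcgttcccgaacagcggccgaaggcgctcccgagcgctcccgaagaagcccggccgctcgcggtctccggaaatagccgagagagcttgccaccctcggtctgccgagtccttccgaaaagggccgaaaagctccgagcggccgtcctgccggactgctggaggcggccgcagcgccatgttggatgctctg
Eif2s3x (chrX:94212602-94212901, minus strand): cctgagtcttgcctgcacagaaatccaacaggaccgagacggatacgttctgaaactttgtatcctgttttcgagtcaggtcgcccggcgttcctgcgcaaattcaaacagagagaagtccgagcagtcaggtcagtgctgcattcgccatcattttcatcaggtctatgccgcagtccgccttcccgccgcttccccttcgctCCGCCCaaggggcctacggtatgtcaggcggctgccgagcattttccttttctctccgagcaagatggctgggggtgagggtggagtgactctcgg
Eif4b (chr15:102073523-102073822, plus strand): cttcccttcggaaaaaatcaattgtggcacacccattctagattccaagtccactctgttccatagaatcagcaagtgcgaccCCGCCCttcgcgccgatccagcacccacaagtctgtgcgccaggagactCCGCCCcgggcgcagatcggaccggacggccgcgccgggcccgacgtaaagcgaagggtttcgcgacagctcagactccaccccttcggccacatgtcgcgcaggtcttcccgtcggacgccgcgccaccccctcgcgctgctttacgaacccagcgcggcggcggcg
Eif2a (chr3:58525571-58525870, plus strand): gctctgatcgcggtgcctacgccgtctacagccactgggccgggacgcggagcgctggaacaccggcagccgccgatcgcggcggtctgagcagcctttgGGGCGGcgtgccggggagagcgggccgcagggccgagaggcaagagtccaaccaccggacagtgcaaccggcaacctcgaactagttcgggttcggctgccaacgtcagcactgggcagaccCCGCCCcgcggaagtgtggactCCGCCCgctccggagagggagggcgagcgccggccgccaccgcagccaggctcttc
Eif2s3y (chrY:1010345-1010644, plus strand): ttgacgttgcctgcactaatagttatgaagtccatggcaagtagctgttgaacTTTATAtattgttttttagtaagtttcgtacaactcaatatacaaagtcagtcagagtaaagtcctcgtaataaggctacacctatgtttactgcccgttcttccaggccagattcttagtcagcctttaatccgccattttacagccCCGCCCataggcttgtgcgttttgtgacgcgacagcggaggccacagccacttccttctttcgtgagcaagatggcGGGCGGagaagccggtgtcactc
The window of Eif1b holds 5 GC boxes, 1 ETS site and 1 enhancer box, and its GC content is 78.3%. That of Eif4g3 holds none of the 6 motifs. Eif2s3x has 1 GC box, Eif4b 2 and Eif2a 3, while Eif2s3y has 2 GC boxes and a TATAAA. Promoters were found for 38 of 47 members. Of these, 73.7% held a GC box, against 35.6% of all 27025 promoters of that length. An ETS site was in 36.8% of the member promoters and in 9.08% of all, and an enhancer box in 21.1% and 7.09%. CCAAT was in 34.2% and 37.8%, TATAAA in 7.89% and 14.1%, and TGACGTCA in 0% and 1.78%. The median GC content was 61.8% in the members and 52.7% in all promoters. These are matches of letters in a window, given as a description.

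The subunits of eIF2 and the other carriers of initiator tRNA held several of the largest falls, and 4 of 5 members fell on day 35 against day 0, beside 27.6% of all genes. Eif2s3x encodes the gamma subunit of eIF2, which binds GTP and the initiator tRNA. Eif2s3x had 817 and 828 on day 0, 809.7 and 749 on day 3, 612 and 662 on day 6, 594 and 562 on day 8 and 528 and 533 on day 10. Eif2s3x then had 415 and 403 on day 14, 267 and 256 on day 18, 192 and 232 on day 20, 107 and 123 on day 30 and 129.6 and 88.0 on day 35. Its intensity was lower at each later day mean, and the arrays of day 35 lay under all arrays of days 0 to 20. The difference on day 35 against day 0 was -2.85 (SE 0.13), with an adjusted p of 1.44e-13. Its other tested probe sets gave -2.91 and -1.67.

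Eif2s3y is the copy of that gene on the Y chromosome, needed for the division of mouse spermatogonia. Eif2s3y had 538 and 495 on day 0, 455 and 535 on day 3, 546 and 507 on day 6, 493 and 529.9 on day 8 and 511 and 504 on day 10. Eif2s3y then had 407 and 421 on day 14, 191 and 206 on day 18, 148 and 172 on day 20, 146 and 153 on day 30 and 127 and 173 on day 35. It stayed between 455 and 546 through day 10 and was lower from day 18 on, with no overlap. On day 8 against day 0 it differed by -0.01, and Eif2s3x by -0.50 (SE 0.13, adjusted p = 0.00892). On day 20 Eif2s3y averaged 160.4 ± 16.8, against 414 ± 9.69 on day 14 (SD, n = 2 each), a fall of 2.52-fold with an adjusted p of 3e-08. On day 35 it was at 29.8% of day 0 and Eif2s3x at 13.8%. The copies are close in sequence, and whether their probe sets tell them apart was not tested. The other probe set of Eif2s3y, with a mean intensity of 9.09, was not bright enough to test. With the mean of both sets, the difference of Eif2s3y on day 35 against day 0 was -0.13 and it no longer passed (adjusted p = 0.549).

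Eif2a encodes a separate protein that can bring initiator tRNA to the ribosome without GTP, and it is not the alpha subunit of eIF2. Eif2a had 347 and 297 on day 0, 270.3 and 338 on day 3, 293 and 275 on day 6, 270.4 and 274 on day 8 and 239 and 256 on day 10. Eif2a then had 198 and 245 on day 14, 139 and 138 on day 18, 154 and 142 on day 20, 105 and 71.0 on day 30 and 38.4 and 83.1 on day 35. Its day mean was highest on day 0 and lowest on day 35, where the replicates were far apart. It fell 5.07-fold on day 35 against day 0 (-2.34, SE 0.23, adjusted p = 1.2e-08). It was also the member that fell on day 35 against day 20, at -1.26, and without day 35 replicate 1 that difference was -0.77 and under 2-fold. Another probe set gave -2.72 on day 35 against day 0. Eif2d, a factor that delivers tRNA to the ribosome independently of GTP, averaged 146 ± 15.4 on day 35 and 359.9 ± 11.4 on day 0 (SD, n = 2 each), a fall of 2.40-fold. Its other tested probe sets gave -1.62, -0.84, -0.48 and 0.45, and its mean over all probe sets was under 2-fold (-0.47). By its chosen probe set Eif2s2, the beta subunit of eIF2, was the exception in the group. Its day mean was highest on day 20 at 4196 ± 149.9, and day 35 lay close to day 0, at 3026 ± 168 and 3179 ± 262. In that comparison the other tested sets of Eif2s2 gave -1.72, -1.48, -0.38, -0.29 and -0.15, so they were all lower and differed in size.

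**Figure D2:**
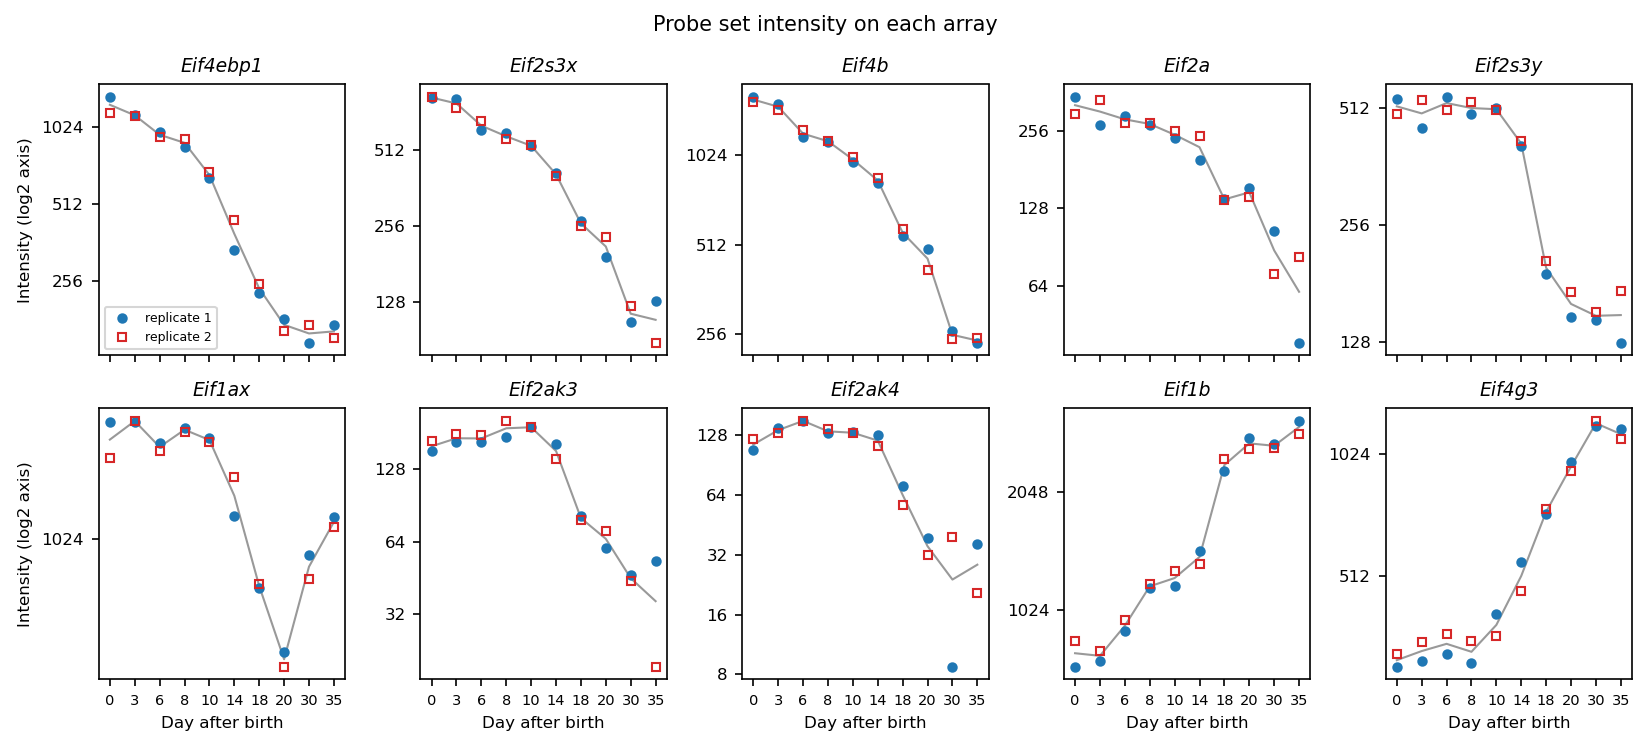
Each panel plots the intensity of 1 probe set on a log2 axis against the day after birth, with replicate 1 as filled circles, replicate 2 as open squares and the day mean as a line. Eif2s3x declines over the whole course, Eif2s3y is lower from day 18 on, Eif1ax recovers after day 20, and Eif1b and Eif4g3 climb.

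None of the 5 subunits of the exchange factor eIF2B, which reloads eIF2 with GTP, rose or fell by the 2-fold rule in any of the 5 comparisons of days. Of all genes, 54.9% rose or fell on day 35 against day 0. In the other comparisons the shares of all genes that rose, or that fell, lay between 2.5% and 18.2%. Over the time course 1 of the 5 subunits, Eif2b3, changed at least 2-fold (range 1.56), where 77.6% of all genes did. The median of the 5 on day 35 against day 0 was 0.16. In that comparison Eif2b4, a regulatory subunit, averaged 717 ± 26.1 on day 35 and 373 ± 7.47 on day 0, which is 0.93 higher (adjusted p = 7.37e-08). Eif2b1, the subunit that senses phosphorylated eIF2, was highest on day 20 at 531 ± 4.23, against 304 ± 22.9 on day 14 (0.79, adjusted p = 5.25e-06), and had 409 on day 35. Eif2b3 peaked on day 10, at 449.9 ± 20.5, and had its lowest mean, 147 ± 4.06, on day 30. The subunits therefore did not share 1 course, and their highest days ranged from day 10 to day 35.

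Of the 4 kinases that phosphorylate eIF2, 3 fell on day 35 against day 0, beside 27.6% of all genes. Eif2ak3, or PERK, responds to unfolded protein in the endoplasmic reticulum. Eif2ak3 had 152 and 168 on day 0, 166 and 179 on day 3, 167 and 177 on day 6, 175 and 205 on day 8 and 192 and 192 on day 10. Eif2ak3 then had 163 and 142 on day 14, 81.9 and 78.8 on day 18, 60.7 and 71.2 on day 20, 46.6 and 43.8 on day 30 and 53.2 and 19.4 on day 35. Its values lay between 142 and 205 to day 14 and were lower from day 18 on, with no overlap between the arrays of days 0 to 14 and those of days 18 to 35. The fall was 4.11-fold on day 35 against day 0 (-2.04, SE 0.25, adjusted p = 3.12e-07). On day 20 against day 14 it was -1.12, and under quantile normalization -0.95. No other probe set of Eif2ak3 was bright enough to test, and with the mean of all its probe sets the day 35 difference was -0.090 and did not pass.

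Eif2ak4, or GCN2, responds to a lack of amino acids. Eif2ak4 had 107 and 122 on day 0, 139.7 and 132 on day 3, 152 and 150.5 on day 6, 131 and 137 on day 8 and 133 and 131 on day 10. Eif2ak4 then had 128 and 113 on day 14, 71.1 and 57.0 on day 18, 38.9 and 31.7 on day 20, 8.74 and 39.3 on day 30 and 36.5 and 20.6 on day 35. It was highest on day 6, and its replicates on day 30 were far apart, 1 of them near the constant added before the logarithm. On day 20 against day 14 it had the largest fall of any member, 2.97-fold (-1.57, SE 0.32, adjusted p = 0.000386). Day 35 against day 0 gave -1.79 (SE 0.32), and its other probe set gave -1.13. Eif2ak2, or PKR, the kinase activated by double-stranded RNA, averaged 34.6 ± 7.43 on day 35 and 95.8 ± 11.2 on day 0, a fall of 2.45-fold. Its other probe sets disagreed, at -1.38 and 0.71, and the mean of all sets was -0.65. Eif2ak1, the kinase regulated by heme, did not pass on day 35 against day 0 (-0.33). Its other tested sets gave -0.43, -1.14 and 0.40, and of these only -1.14 had an adjusted p under 0.05. The chosen set of Eif2ak1 was highest on day 14, at 229 ± 16.4.

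The factors of scanning and subunit joining held the largest rise of the group. Eif1b encodes a protein nearly identical to eIF1, which guards the choice of start codon. Eif1b had 733 and 855 on day 0, 758 and 806 on day 3, 903 and 963 on day 6, 1164 and 1189.8 on day 8 and 1181 and 1289.8 on day 10. Eif1b then had 1452 and 1345 on day 14, 2313 and 2491 on day 18, 2819 and 2636 on day 20, 2718 and 2662 on day 30 and 3121 and 2888 on day 35. Its day means were higher at each step except from day 0 to day 3 and from day 20 to day 30, and no array of days 18 to 35 overlapped those of days 0 to 14. It rose 3.76-fold on day 35 against day 0 (1.91, SE 0.08, adjusted p = 3.13e-14). Day 20 against day 14 gave 0.96, just under 2-fold (adjusted p = 5.69e-09). Without day 14 replicate 1 it was 1.02, and without day 20 replicate 2 it was 1.01. Eif1b has 1 probe set on the array. It averaged 1177 ± 18.4 on day 8, against 794 ± 86 on day 0, a difference of 0.57 with an adjusted p of 3.06e-05.

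Eif1ax is the X-linked gene of eIF1A, which works with eIF1 in scanning. Eif1ax had 1751 and 1484 on day 0, 1758 and 1767 on day 3, 1591 and 1535 on day 6, 1710.3 and 1676 on day 8 and 1628 and 1601 on day 10. Eif1ax then had 1135 and 1362 on day 14, 814 and 832 on day 18, 607 and 567 on day 20, 949.8 and 849 on day 30 and 1130.1 and 1082 on day 35. By its chosen probe set the course dipped and recovered. Both arrays of day 20 were the lowest of all, and those of days 30 and 35 were higher again. On day 20 against day 14 it fell 2.11-fold (-1.07, SE 0.09, adjusted p = 4.54e-09), and without day 14 replicate 2 the difference was -0.94. On day 35 against day 20 it was 0.91 higher (adjusted p = 7.22e-08), short of 2-fold. With the mean of its 3 probe sets that difference was -0.071. Its other probe sets were lower on day 35 than on day 20, at -0.70 (adjusted p = 0.0216) and -0.42 (adjusted p = 0.129), so the recovery was seen in the chosen set alone. The autosomal gene of the same factor, Eif1a, lies on chromosome 18. Eif1a had 437 and 364 on day 0, 438 and 419 on day 3, 457 and 438 on day 6, 423 and 422 on day 8 and 362 and 410.0 on day 10. Eif1a then had 473 and 519 on day 14, 445 and 478 on day 18, 609 and 584 on day 20, 340.1 and 270.0 on day 30 and 313 and 338 on day 35. It was highest where Eif1ax was lowest, on day 20, and it did not change 2-fold in any of the 5 comparisons. On day 35 it was lower than on day 20 by 0.86 (adjusted p = 3.02e-06). The other probe set of Eif1a gave -1.36 on day 35 against day 0, where the chosen one gave -0.29.

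Eif5, the factor that activates GTP hydrolysis by eIF2, averaged 3105 ± 130.1 on day 35 and 1622 ± 81.9 on day 0, higher by 0.93 (adjusted p = 1.47e-07). Its other tested probe sets gave 1.74, 0.50, 0.31 and -1.57 in that comparison, so they did not move one way. By its chosen set Eif5b, the GTPase of subunit joining, was highest on days 6 to 10. It differed little between the ends of the course, with 371 ± 21.6 on day 35 and 355 ± 11.7 on day 0. On day 8 it was higher than on day 0 by 0.55 (adjusted p = 0.000259). The other tested sets of Eif5b gave -0.30 and, from a dim set, -1.12 (adjusted p = 0.0145) on day 35 against day 0. On day 20 against day 14 the chosen set gave -0.51, and the others -1.29 (adjusted p = 1.2e-07) and -0.77. Eif1ad, a gene named for an eIF1A-like domain, averaged 561 ± 25.1 on day 35 and 298 ± 1.64 on day 0, higher by 0.90 (adjusted p = 3.12e-07). Its other probe set gave -1.04, and with the mean of both sets the difference was -0.071.

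Of the 11 subunits measured here of eIF3, the largest initiation factor, 3 fell on day 35 against day 0, where 27.6% of all genes did. None rose or fell 2-fold in the other 4 comparisons, where the shares of all genes that rose, or that fell, lay between 2.5% and 18.2%. On day 14 against day 8, 9 of 11 were lower with an adjusted p under 0.05 and differences down to -0.66, where 11.6% of all genes were lower by the adjusted p alone. The median of the 11 was -0.41, against -0.02 over all genes. On day 20 against day 14, 4 of 11 were higher and 3 lower by the adjusted p alone, near the 27.1% and 29.6% of all genes. Eif3k, Eif3e, Eif3f and Eif3h were higher, at 0.64, 0.32, 0.25 and 0.17, and Eif3a, Eif3l and Eif3d lower, at -0.39, -0.48 and -0.23. The sign of Eif3h flipped under quantile normalization (-0.016) and a common median (-0.043), and that of Eif3d with the mean of its probe sets (0.20). The other set of Eif3d, with a mean intensity of 7.76, was not bright enough to test. Between day 35 and day 0, Eif3a, Eif3l and Eif3m fell, 6 others were lower by less than 2-fold, and Eif3b was higher (0.35, adjusted p = 0.00131).

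**Figure D3:**
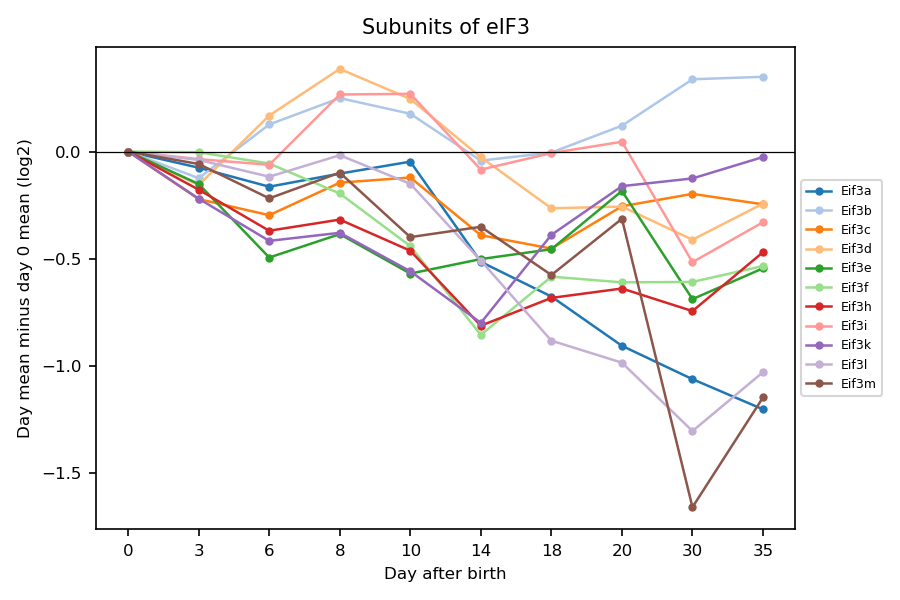
Lines give, for each of 11 eIF3 subunits, the day mean of log2(intensity + 7.83) minus that of day 0, over the 10 days. All 11 lines lie below 0 on day 14, Eif3a, Eif3l and Eif3m end below -1 on day 35, and Eif3b ends above 0.

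Eif3a encodes the largest subunit, the core of the complex. Eif3a had 2542 and 2422 on day 0, 2478 and 2237 on day 3, 2393 and 2048 on day 6, 2374 and 2247 on day 8 and 2341 and 2463 on day 10. Eif3a then had 1723 and 1745 on day 14, 1609.6 and 1490.2 on day 18, 1294 and 1345 on day 20, 1188 and 1179 on day 30 and 1083 and 1062 on day 35. Its arrays stayed at 2048 or above to day 10 and at 1745 or below from day 14 on. It fell 2.30-fold on day 35 against day 0 (-1.20, SE 0.08, adjusted p = 1.52e-11), and its other probe sets gave -1.79, -1.52 and -2.68. Eif3m had its lowest values on day 30, at 493 and 317, and averaged 568 ± 46.7 on day 35 against 1269 ± 98.5 on day 0 (2.22-fold lower). Eif3l averaged 877 ± 53.6 on day 35 and 1798 ± 59.4 on day 0. Its difference was -1.03, and -0.997 without day 0 replicate 1 or -0.97 without day 35 replicate 2, both short of 2-fold. The other probe sets of Eif3l gave 0.12 and 0.52 and that of Eif3m 0.63, none with an adjusted p under 0.05. Neither gene passed with the mean of all probe sets, at -0.13 for Eif3l (adjusted p = 0.668) and -0.26 for Eif3m (adjusted p = 0.300). Eif3k was lowest on day 14 at 1337 ± 9.65, and was back at 2293 ± 12 on day 35, close to 2334 ± 55.3 on day 0.

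The chosen probe sets of the 3 cap-binding forms did not change 2-fold in any comparison. Of all genes, 54.9% rose or fell on day 35 against day 0, and 77.6% changed over the time course. In the other comparisons of days the shares of all genes that rose, or that fell, lay between 2.5% and 18.2%. Eif4e encodes the protein that binds the cap of messenger RNA. Eif4e had 1150.3 and 1151 on day 0, 1224 and 1089 on day 3, 1223 and 1309 on day 6, 1389 and 1237 on day 8 and 1223 and 1255 on day 10. Eif4e then had 1437 and 1339 on day 14, 1150.0 and 1028 on day 18, 1233 and 1236 on day 20, 1284 and 1259 on day 30 and 1601 and 1557 on day 35. Its day means ran between 1089 and 1579, and the highest was on day 35. On day 35 it was higher than on day 0 by 0.45 (adjusted p = 2.82e-05). The other tested probe sets of Eif4e gave 3.80, 0.48 and -0.59 in that comparison. The first of these, a dimmer set that ran from 7.90 to 428 over the arrays, rose, while the chosen set was higher by less than 2-fold. Eif4e rose with the mean of its probe sets (1.04, adjusted p = 2.27e-07). Probe sets also differed for Eif4e2, a cap-binding homolog linked to repression. Its chosen set gave -0.11, and the others gave 1.93, 1.82, 0.20 and 0.09. Eif4e3, another form, was highest on day 14 at 149 ± 16.6, against 84.7 ± 17.9 on day 8 (0.77, adjusted p = 0.0146).

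Among the proteins that bind eIF4E, Eif4ebp1 had the largest fall of the group. Its product blocks eIF4E from the scaffold until mTOR phosphorylates it. Eif4ebp1 had 1345 and 1159 on day 0, 1142 and 1136 on day 3, 978 and 934 on day 6, 856 and 922 on day 8 and 646 and 684 on day 10. Eif4ebp1 then had 339.7 and 444 on day 14, 229 and 250.4 on day 18, 182 and 164 on day 20, 147 and 173 on day 30 and 172 and 154 on day 35. The values were lower at each day mean to day 30, and the arrays of day 20 and later lay below all earlier ones. It fell on day 14 against day 8 (-1.18, SE 0.12, adjusted p = 2.51e-07) and again on day 20 against day 14 (-1.14, SE 0.12, adjusted p = 1.17e-07). Without day 14 replicate 1 the first of these was -0.99, and with the mean of all probe sets -0.81. The second was -0.95 without day 14 replicate 2, -0.98 under quantile normalization and -0.41 with the mean of all probe sets. On day 20 against day 14 its other sets went opposite ways, at -1.31 and 1.22. The latter, a dim set with a mean intensity of 48.1, passed as a rise (adjusted p = 0.00137). The difference on day 35 against day 0 was -2.88 (SE 0.12, adjusted p = 2.36e-14). Another probe set gave -2.74, a dim one 0.06, and the mean of all sets -1.85.

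Eif4ebp2, a homolog with the same action, followed another course. Eif4ebp2 had 324 and 362 on day 0, 369.9 and 382 on day 3, 524 and 490.5 on day 6, 496 and 524 on day 8 and 506 and 507 on day 10. Eif4ebp2 then had 383 and 344 on day 14, 349 and 358 on day 18, 305 and 269.9 on day 20, 254 and 255 on day 30 and 206 and 262 on day 35. It was highest on days 6 to 10 and lowest on days 30 and 35. On day 8 it was higher than on day 0 by 0.56 (adjusted p = 0.000806), and on day 35 lower than on day 0 by 1.46-fold (adjusted p = 0.000164). The first of these turned to -0.12 with the mean of its probe sets. Eif4enif1, which carries eIF4E into the nucleus and to stored messages, was highest on day 10 at 551 ± 18. It averaged 284 ± 17.7 on day 35 and 399 ± 40.4 on day 0 (-0.48, adjusted p = 0.000454).

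By their chosen probe sets, the scaffold gene Eif4g3 rose while its relative Eif4g2 did not. Mice with a mutation of Eif4g3 are known for male germ cells that stop at the end of meiotic prophase. Eif4g3 had 306 and 329 on day 0, 316 and 352 on day 3, 329 and 368 on day 6, 312 and 354 on day 8 and 412 and 364 on day 10. Eif4g3 then had 554 and 471 on day 14, 728 and 749 on day 18, 979 and 931 on day 20, 1202 and 1241 on day 30 and 1181 and 1116 on day 35. Its arrays stayed at 412 or below through day 10, and each day mean from day 10 to day 30 was higher than the one before. It rose 3.56-fold on day 35 against day 0 (1.83, SE 0.10, adjusted p = 1.71e-12). On day 14 against day 8 it was higher by 0.61, and on day 20 against day 14 by 0.89, or 1.01 without day 14 replicate 1. Its other tested probe sets, with mean intensities of 32.1 to 37.7, gave 0.80, 0.41 and -0.998, and with the mean of all sets the difference was 0.51. Pachytene markers summed to 27980 to 28084 on day 20 and to 7473 to 8864 on day 14, and their part in this rise was not tested. Eif4g2, a scaffold that lacks the eIF4E-binding part, averaged 2926 ± 48.6 on day 35 and 3725 ± 138 on day 0 (-0.35, adjusted p = 0.000471). The other tested sets of Eif4g2 gave -0.84, -0.96, 1.16 and 0.82, the last 2 from dim sets with mean intensities of 16.0 and 25.9. The set at 1.16 passed as a rise (adjusted p = 0.0253).

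All 4 genes of the eIF4A helicases and their cofactors fell on day 35 against day 0, where 27.6% of all genes did. Eif4a1 encodes the main helicase that unwinds messages before the ribosome. Eif4a1 had 3369.7 and 3139 on day 0, 3455 and 3582 on day 3, 3058 and 3043 on day 6, 2688 and 2992 on day 8 and 2819 and 2859 on day 10. Eif4a1 then had 2427 and 2576 on day 14, 2144 and 2319 on day 18, 1919 and 1973 on day 20, 1273 and 1323 on day 30 and 1328 and 1268 on day 35. It was highest on day 3 and lowest on days 30 and 35, and the arrays of these last days did not overlap any earlier ones. The fall was 2.50-fold (-1.32, SE 0.07, adjusted p = 5.45e-13), and its other probe sets gave -2.25 and -1.84. Eif4a2 encodes a closely related helicase. Eif4a2 had 2167 and 2053 on day 0, 2433 and 2314 on day 3, 2443 and 2389 on day 6, 2130.1 and 1967 on day 8 and 1935 and 1848 on day 10. Eif4a2 then had 2449 and 2122 on day 14, 1862 and 1640.2 on day 18, 1643 and 1908 on day 20, 1004 and 787 on day 30 and 1037 and 909 on day 35. Its lowest value before day 30 was 1640.2, and it was lower on day 35 than on day 20 by 1.82-fold (adjusted p = 1.39e-06). Against day 0 it fell 2.16-fold (-1.11, SE 0.11).

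Eif4b stimulates the helicase. Eif4b had 1606 and 1538 on day 0, 1522 and 1453 on day 3, 1172 and 1242 on day 6, 1134 and 1143 on day 8 and 973 and 1004 on day 10. Eif4b then had 827 and 854 on day 14, 546 and 576 on day 18, 496 and 422 on day 20, 263 and 246 on day 30 and 239 and 248 on day 35. Each day mean was lower than the one before, with no overlap of neighboring days from day 3 to day 30. It fell 6.28-fold on day 35 against day 0 (-2.65, SE 0.08, adjusted p = 2.88e-16). The steps were smaller than 2-fold: -0.46 on day 8 against day 0, -0.43 on day 14 against day 8, -0.87 on day 20 against day 14 and -0.89 on day 35 against day 20. The other probe sets gave -1.76 and -0.41 on day 35 against day 0, and the mean of all sets -1.61. Eif4h, a cofactor of similar action, averaged 1288 ± 61.7 on day 35 and 2919 ± 2.9 on day 0, a fall of 2.26-fold. Its other sets gave -1.32, -1.19, -1.15, 0.18 and 1.15, the last from a dim set, and the mean of all sets was -0.58.

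eIF5A helps ribosomes through difficult peptide bonds, and it has paralogous genes, Eif5a and Eif5a2. Eif5a had 3789.8 and 3769.5 on day 0, 3965 and 3951 on day 3, 4391 and 4476 on day 6, 4479.8 and 4693 on day 8 and 4508 and 4631 on day 10. Eif5a then had 4472 and 4795 on day 14, 4943 and 5472 on day 18, 5185 and 5065 on day 20, 4859 and 4548 on day 30 and 5150.4 and 4539.5 on day 35. Eif5a varied little, and day 35 was higher than day 0 by 0.35 (adjusted p = 9.09e-05). Eif5a2 had 226 and 190.5 on day 0, 219.8 and 168 on day 3, 238 and 267 on day 6, 243 and 277 on day 8 and 222 and 235 on day 10. Eif5a2 then had 141 and 141 on day 14, 138 and 122 on day 18, 152 and 124 on day 20, 54.1 and 84.7 on day 30 and 75.0 and 77.4 on day 35. Eif5a2 was highest on days 6 and 8 and lowest on days 30 and 35. It fell 2.57-fold on day 35 against day 0 (-1.36, SE 0.18, adjusted p = 1.1e-06), and its other probe set gave -1.07. Eif6 keeps the large subunit from joining too early. Eif6 had 604 and 605 on day 0, 574 and 545 on day 3, 687 and 683 on day 6, 748 and 762 on day 8 and 689 and 694 on day 10. Eif6 then had 615 and 585 on day 14, 600.0 and 611 on day 18, 506 and 476 on day 20, 360.5 and 347 on day 30 and 471 and 374 on day 35. It was highest on day 8 and lowest on day 30, and day 35 was lower than day 0 by 0.52 (adjusted p = 3.52e-05). Eif4a3, a helicase of the exon junction complex, had 1 probe set of a single symbol, which read 1.12 to 33.5 over the 20 arrays. It passed the filter on 1 array and was not tested.

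**Figure D4:**
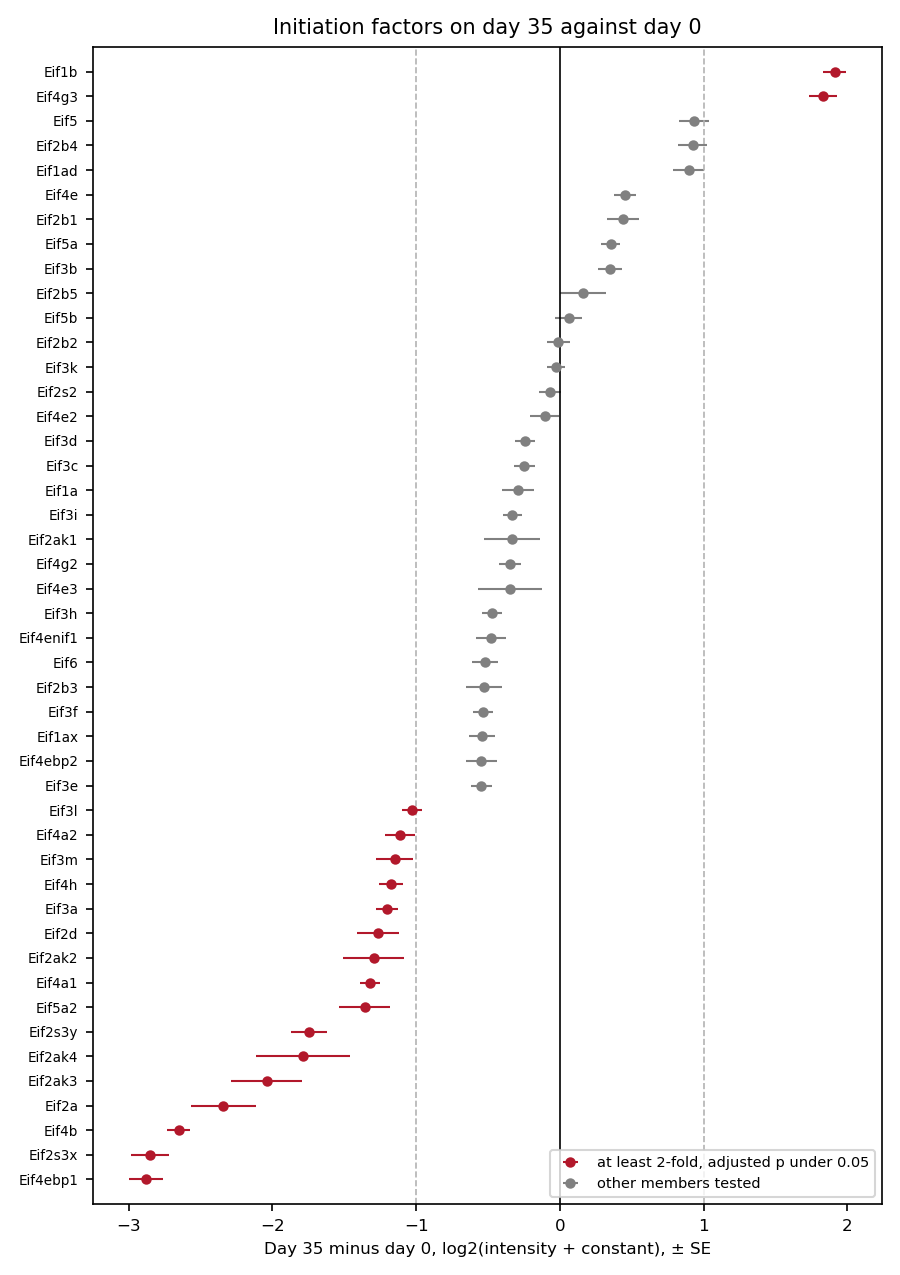
Points give the difference in log2(intensity + 7.83) on day 35 minus day 0 for the 46 tested initiation factors, with bars of 1 SE, and the dashed lines mark 2-fold. Red points are the 16 that fell and the 2 that rose.

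The falls and rises by interval are given beside the shares of all genes, and the intervals differ in length. On day 8 against day 0, none of the 46 rose or fell 2-fold by limma, where 3.29% of all genes rose and 2.77% fell. At an unadjusted p under 0.05, 13 were higher and 11 lower. By the adjusted p alone, 11 were higher (12.6% of all genes) and 10 lower (9.11%). The largest difference was that of Eif2b4 (0.58, SE 0.10, adjusted p = 0.00031). On day 14 against day 8 none rose (5.48% of all genes) and 1, Eif4ebp1, fell (2.5%). By the adjusted p alone 4 were higher and 20 lower, and all genes gave 13.6% and 11.6%. The share of members that were lower, 43.5%, exceeds that background, while by the 2-fold rule the share was 2.17%, beside 2.5%. The adjusted p depends on the spread between replicates. Its median SD (log2) was 0.054 for members and 0.111 for all genes on day 8, and 0.064 and 0.128 on day 14. The part of that spread in the excess was not tested. The medians were -0.27 for the members and -0.02 for all genes. With the mean of all probe sets of a gene they were nearer each other, at -0.092 and -0.005. Over that interval the meiotic prophase markers summed to 12494 to 12878 on day 14 and to 2923 to 2942 on day 8.

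On day 20 against day 14, 5 members fell (10.9%, beside 11.2% of all genes) and none rose, where 18.2% of all genes did. They were Eif2ak4, Eif2s3y, Eif4ebp1, Eif2ak3 and Eif1ax, the last with the smallest of these falls. With the mean of all probe sets 3 fell, and of these 5 only Eif2ak4 was among them (-1.04). Eif2s3y gave -0.54, Eif4ebp1 -0.41, Eif1ax -0.74 and Eif2ak3 0.24, while Eif2s3x (-1.13) and Eif4a1 (-1.01) passed 2-fold. By the adjusted p alone 12 were higher and 21 lower (27.1% and 29.6% of all genes). At an unadjusted p under 0.05, 14 were higher and 22 lower. Close to 2-fold without reaching it were Eif1b (0.96), Eif4g3 (0.89), Eif2b1 (0.79), Eif4b (-0.87) and Eif2s3x (-0.93). Under a common median of the arrays, Eif2s3x (-1.14) and Eif4b (-1.08) also passed 2-fold. On day 35 against day 20 only Eif2a fell among the 46 (7.27% of all genes), and none rose (8.5%). Without day 35 replicate 1, Eif2ak3 (-1.44) and Eif2s3x (-1.19) passed 2-fold in its place, and Eif2ak2 passed without day 35 replicate 2 (-1.06) and under quantile normalization (-1.05). By the adjusted p alone 5 were higher and 20 lower, where all genes gave 12.5% and 31.6%, and at an unadjusted p under 0.05, 8 were higher and 22 lower. The medians were -0.25 and -0.20. Sertoli markers summed to 1970 to 2134 on day 35 and to 3139 to 3231 on day 20, and spermatid markers to 54659 to 60734 and to 2864 to 2876. These 5 comparisons share arrays and are not independent.

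On day 35 against day 0, 18 members rose or fell (39.1%), where 54.9% of all genes did. By the adjusted p alone 9 were higher and 29 lower, and all genes gave 34.4% and 39%. The 18 have 31 other tested probe sets. Of these, 19 passed an adjusted p under 0.05 in the same direction as the chosen set, 2 passed in the opposite direction and 10 did not pass. Eif2ak3, Eif2s3y, Eif4a2 and Eif1b had no other tested set to compare. With the mean of all probe sets of a gene 9 falls were left: those of Eif2s3y, Eif2d, Eif2ak2, Eif2ak3, Eif3l, Eif3m and Eif4h no longer passed 2-fold. There were again 2 rises, with Eif4e in place of Eif4g3.

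Lists of other translation genes were read in the same fit, and their counts stand beside the 27.6% of all genes that fell and the 27.3% that rose on day 35 against day 0. Of 8 elongation factors tested, 2 fell on day 35 against day 0 and none rose. They were Eef1b2, an exchange factor (-1.66), and Eef2k, a kinase that inhibits elongation (-1.86). Of 9 genes of termination and recycling, 4 fell and 1 rose. Mcts1, a recycling factor encoded on the X chromosome, averaged 84.5 on day 35 and 655 on day 0 (-2.84, adjusted p = 2.17e-15). Its homolog Mcts2 averaged 1168 on day 35 and 285 on day 0 (2.01, adjusted p = 3.21e-13), so this pair moved in opposite directions.

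Of 8 poly(A)-binding proteins and partners, 2 rose and 2 fell. The germ cell forms Pabpc2 and Pabpc6 averaged 2578 and 1851 on day 35 and 6.72 and 0.91 on day 0. These day 0 values lie under the added constant, so the size of their log2 differences, 7.47 and 7.73, depends on it. Paip2, an inhibitor of poly(A)-binding protein, fell (-2.19). Of 19 genes of signaling to initiation, 7 fell and 2 rose. Mtor, the kinase that acts on Eif4ebp1, rose (1.37, adjusted p = 1.83e-11), and Ddit3, a transcription factor of the stress response, rose (2.13). Atf4, a transcription factor translated when eIF2 is phosphorylated, fell (-1.41).

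Of 17 helicases and cap-linked partners, 4 rose and 6 fell. Ddx3x, an X-linked helicase, averaged 368 on day 35 and 2791 on day 0 (-2.90, adjusted p = 1.95e-16). Its autosomal homolog D1Pas1 averaged 736 on day 35 and 33.7 on day 0 (4.21, adjusted p = 3.6e-14). Angel1, a relative of deadenylases that binds eIF4E, rose (3.00), and Ncbp1, of the nuclear cap-binding complex, rose (1.92). The medians of these 5 lists on day 35 against day 0 were -0.62, -0.75, 0.46, -0.65 and -0.60 in the order given, against -0.47 for the initiation factors and -0.03 over all genes.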

How the data were processed

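Per the labels' protocols, total RNA of whole testis was prepared with Trizol and carried biotin from a one-cycle kit for 3' amplification. In the deposited table there is 1 linear intensity for each of 45101 probe sets on each of 20 single-channel arrays, and the authors' values have a 2% trimmed mean of 125.0 on all arrays. The software that summarized the probes and its settings are not given in the sources used here, and no detection calls were used. No further normalization was applied. Intensities carry no read depth, so the number of arrays limits the precision.

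Symbols came from the platform annotation. Of the probe sets, 34945 carried 1 symbol, 932 carried several and were not used, 9160 were not listed and 64 were controls. Eif4g1 and Eif1 are not analysed here, and Eif3j1, Eif3j2 and Eif4ebp3 have only sets of several symbols. A gene was tested if it lay above the 40th percentile of the array on at least 2 arrays. Tests used log2(intensity + 7.83), with the pooled 20th percentile as the constant. limma 3.58.1 in R 4.3.3 (lmFit, eBayes with trend) fitted day as a factor, leaving 10 residual degrees of freedom (8.88 prior). Two-sided p-values had a Benjamini-Hochberg adjustment over 16429 genes in each comparison. Values on every array are given for the 4 largest called rises and 4 largest falls of each comparison and for a fixed set of members. Eif1ax was added after its values were seen, and the remaining members are given by day means, ranges and counts. The members, the 16 lists (160 genes) and the rule were chosen with earlier results of these data known. Alternatives were quantile normalization, a common median, other constants, floors and filters, the mean of all probe sets, no trend, the threshold, the replicate block, fits on 2 days alone and each array left out. Fitting every probe set separately was added after seeing the data. Figures used matplotlib 3.10.9 in Python 3.11.15. The replicate numbers did not pair the arrays: deviations correlated between -0.02 and 0.06 over 45 pairs of days.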

Additional observations from a re-analysis of the deposited data

How the results depend on the processing

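Of the counts of members that changed, those of day 8 against day 0 were 0 under every alternative with the 2-fold rule. With the adjusted p alone the counts were 45 over the time course, 11 higher and 10 lower on day 8 against day 0, 4 and 20 on day 14 against day 8, 12 and 21 on day 20 against day 14, 5 and 20 on day 35 against day 20, and 9 and 29 on day 35 against day 0. With the mean of all probe sets of a gene, 15 changed over the time course, 0 fell on day 14 against day 8, 3 on day 20 against day 14 and 9 on day 35 against day 0. Under quantile normalization 3 fell on day 20 against day 14 and 2 on day 35 against day 20. Leaving out 1 array at a time gave 23 to 26 for the time course, 0 to 1 falls on day 14 against day 8, 0 to 2 rises and 3 to 6 falls on day 20 against day 14, 1 to 2 falls on day 35 against day 20, and 2 rises with 15 to 16 falls on day 35 against day 0. The cause of these departures was not tested. Signs turned with the mean of all probe sets for Eif4a1 (0.13) and Eif4ebp2 (-0.12) on day 8 against day 0, Eif1ax (0.067), Eif4ebp2 (0.014) and Eif6 (0.054) on day 14 against day 8, Eif2ak3 (0.24), Eif3d (0.20) and Eif4h (0.088) on day 20 against day 14, Eif1ad (-0.29) and Eif1ax (-0.071) on day 35 against day 20, and Eif1ad (-0.071), Eif3d (0.39) and Eif3h (0.27) on day 35 against day 0. The other probe sets of Eif2ak3, Eif3d and Eif3h were not bright enough to test, so these means include sets under the filter. Eif3h on day 20 against day 14 turned under quantile normalization (-0.016) and a common median (-0.043). A common median moved the median of all genes to -0.18 on day 20 against day 14 (0.01 otherwise) and to -0.15 on day 35 against day 0 (-0.03 otherwise). Other constants, floors, filters, no trend and fits on the compared days left these counts within 1.5 times. With the replicate block the counts were 24, 5 falls on day 20 against day 14 and 16 falls with 2 rises on day 35 against day 0, the same as without it.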
